A study of Mus musculus with 20 samples.

Results

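The miRNAs described here come from imprinted loci other than the Dlk1-Dio3 domain. They are miR-335 of the Mest gene, miR-296 and miR-298 of the Gnas region, miR-675 of H19 and miR-483 of Igf2. Members were chosen by name, and both arms of each of the 5 hairpins were taken, which gave 10 mature miRNAs of the 1886 listed in every library. That choice used names and no measured values, though earlier results of these data were known. The data are small RNA reads from neurons of the embryonic midbrain, taken from C57Bl6/J mice at E12.5 and kept as primary cultures. Ventral mesencephalon freed of meninges was dissociated and grown serum-free, and RNA was taken on day 1 or day 5 in vitro (DIV1, DIV5). Cultures received no addition (control) or 10 ng/ml GDNF, glial cell line-derived neurotrophic factor, a survival factor for dopaminergic neurons. This made 4 groups of 5 libraries, 20 in all. All cultures were of 1 strain with no genetic change. The labels do not state how many embryos were pooled or whether replicates were separate cultures, so the p-values speak to the variation among libraries, which may be technical.

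An imprinted gene is transcribed mainly from the copy inherited from 1 parent. Mest and Igf2 are known for expression from the paternal copy and H19 from the maternal copy, and the Gnas region holds overlapping transcripts of both kinds, among them the antisense RNA Nespas. A miRNA is cut from a hairpin in a longer transcript, and the hairpin can give a mature miRNA from its 5′ side (5p arm) and another from its 3′ side (3p arm). Targets are recognised mainly through the seed, bases 2 to 8 of the mature miRNA. H19 and Igf2 are best known for growth control in fetal tissue, and Mest is named for its transcription in the mesoderm. The counts do not separate the parental copies, so imprinting itself was not measured.

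The mature sequences are shown because each arm has counts of its own, with the seed in capitals (RefSeq, GRCm38.p6). All 10 members matched an entry of that table, and none of its 1679 mature miRNAs shared a seed with a member. The arms are 21 to 24 nucleotides long.
mmu-miR-335-5p: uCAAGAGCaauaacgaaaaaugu
mmu-miR-335-3p: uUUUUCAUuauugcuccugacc
mmu-miR-296-5p: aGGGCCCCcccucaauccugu
mmu-miR-296-3p: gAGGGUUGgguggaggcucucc
mmu-miR-298-5p: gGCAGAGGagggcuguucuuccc
mmu-miR-298-3p: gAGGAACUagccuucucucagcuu
mmu-miR-675-5p: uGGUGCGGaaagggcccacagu
mmu-miR-675-3p: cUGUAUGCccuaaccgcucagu
mmu-miR-483-5p: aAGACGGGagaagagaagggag
mmu-miR-483-3p: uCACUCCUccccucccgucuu
No seed is shared between the arms of a hairpin or between the neighbours miR-296 and miR-298. The arms of miR-335 are poor in G and C (30.4% for the 5p arm and 36.4% for the 3p arm), whereas both arms of miR-296 are rich in them (66.7% and 68.2%).

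Positions are on GRCm38 (mm10), with gene models of GENCODE vM21. Mir335 lies at chr6:30741299-30741396 on the plus strand, within introns of every annotated Mest transcript across it. Mir296 (chr2:174267047-174267125) and Mir298 (chr2:174267504-174267585) lie 378 bases apart on the minus strand. No other annotated gene overlaps either, and the nearer ends of Nespas and Gnas are 13651 and 16734 bases from Mir298. Mir675 (chr7:142577064-142577147, minus strand) overlaps an H19 exon in most H19 transcripts. Mir483 (chr7:142654924-142654996, minus strand) lies within Igf2 introns, with 77776 bases between it and Mir675. The hairpins of miR-296 and miR-335 follow with the mature arms in capitals, the 5p arm first, because the balance of the arms differed between days at both.
mir-296: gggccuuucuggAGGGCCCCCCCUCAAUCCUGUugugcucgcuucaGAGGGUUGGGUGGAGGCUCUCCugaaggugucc
mir-335: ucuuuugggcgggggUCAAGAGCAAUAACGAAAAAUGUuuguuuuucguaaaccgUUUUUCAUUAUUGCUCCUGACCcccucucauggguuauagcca

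Library totals lay between 420118 and 4324505 counted reads, and those at DIV1 (at most 1761023) were mostly smaller than those at DIV5. Reads with no miRNA feature were 16.5% to 22.6% of the total at DIV1. At DIV5 they were 17.7% to 19.5% in replicates 1 and 2 and 9.51% to 13.3% in replicates 3 to 5, of both treatments. DIV5 control replicates 1 and 5 were the highest of their group in miR-335-5p and miR-296-3p and the lowest in miR-298-5p, and results that rest on them are also given without them. Known results of these data led to that choice, so the values without them follow in part from it. Arms listed as neuronal markers (miR-124, miR-128 and others) had a summed level of 4466 to 7964 CPM in DIV1 controls and 14374 to 23267 CPM in DIV5 controls (4561 to 8150 and 14204 to 19214 CPM with GDNF), and 1 of the 15 arms was at 0 throughout. Summed levels of the proliferation list, which holds the arms of miR-17 and miR-92a among others, were 45027 to 68725 and then 8450 to 12092 CPM in controls (46129 to 57638 and 8775 to 14119 CPM with GDNF). Most of that sum was miR-92a-3p, with means of 54618 and then 8207 CPM in controls, beside 1262 and then 555 CPM for miR-17-5p. Of the tested arms in controls, 9 of 13 neuronal arms rose and 3 fell, and 9 of 10 proliferation arms fell (edgeR). The mesenchymal and vascular list gave 2757 to 4070 and then 450.0 to 1347 CPM in controls (2732 to 3420 and 201 to 2019 CPM with GDNF), and the blood and endothelial list, with 3 of 15 arms at 0, gave 157 to 327 and then 34.8 to 96.5 CPM (145 to 260 and 39.9 to 93.4 CPM with GDNF). In those lists 3 of 5 and 4 of 4 tested arms fell in controls. Most of the mesenchymal and vascular sum was miR-143-3p, with means of 3273 and then 766 CPM in controls. The next arm of that list, miR-199a-5p, averaged 51.8 and then 21.4 CPM in controls, and 53.1 and then 54.8 CPM with GDNF. In controls glial arms summed to 2684 to 3377 and then 2580 to 3156 CPM, oligodendrocyte arms to 744 to 940.1 and then 358 to 553 CPM, and epithelial arms to 59.9 to 92.9 and then 51.2 to 59.3 CPM. With GDNF the glial sums were 2893 to 3505 and then 2813 to 3189 CPM. Those of oligodendrocyte arms were 738 to 937 and then 336 to 464 CPM, and of epithelial arms 82.2 to 104 and then 52.0 to 74.7 CPM. Directions were mixed in controls: of 4 tested glial arms 2 rose and 1 fell, and of 3 oligodendrocyte arms 1 rose and 2 fell. Both tested epithelial arms fell in controls, and 1 of the 2 fell with GDNF (edgeR). Most of the epithelial sum was miR-203-3p, with means of 60.3 and then 45.7 CPM in controls, and 2 of the 14 arms were at 0 throughout. Most of the glial sum was miR-21a-5p, with means of 2993 and then 2639 CPM in controls. The part of these lists in the results below was not tested. In such bulk RNA, a change in how many cells of a type are present and a change within those cells cannot be told apart.

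The 5 loci covered a range of levels from rank 14 of all listed miRNAs to a few reads per library. Levels are CPM, read counts relative to the library total after scaling with TMM factors, and are set against each other directly because the arms are of like length. How well each sequence is captured in library preparation was not measured. Over 20 libraries miR-298-5p averaged 15826 CPM, miR-335-3p 2168, miR-335-5p 1729, miR-296-3p 357, miR-296-5p 134 and miR-298-3p 7.77 CPM. The Igf2 and H19 arms were the lowest, with miR-483-3p at 3.66, miR-483-5p at 1.59, miR-675-3p at 0.735 and miR-675-5p at 0.133 CPM. As a share of the members' reads in a library, miR-298 gave 82.8% ± 1.18 (SD, n = 5) in DIV1 controls, 83.3% ± 0.621 at DIV1 with GDNF, 66.8% ± 10.5 in DIV5 controls and 71.2% ± 3.97 at DIV5 with GDNF. The share of miR-335 was 14.8% ± 1.01, 14.5% ± 0.573, 30.1% ± 9.64 and 26.2% ± 3.92 in the same groups, and that of miR-296 was between 2.15% and 3.09% in every group mean. The members together held 2.37% ± 0.145 (SD, n = 5) of counted reads in DIV1 controls, 2.52% ± 0.372 with GDNF, 1.60% ± 0.0860 in DIV5 controls and 1.46% ± 0.259 with GDNF.

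**Figure D1:**
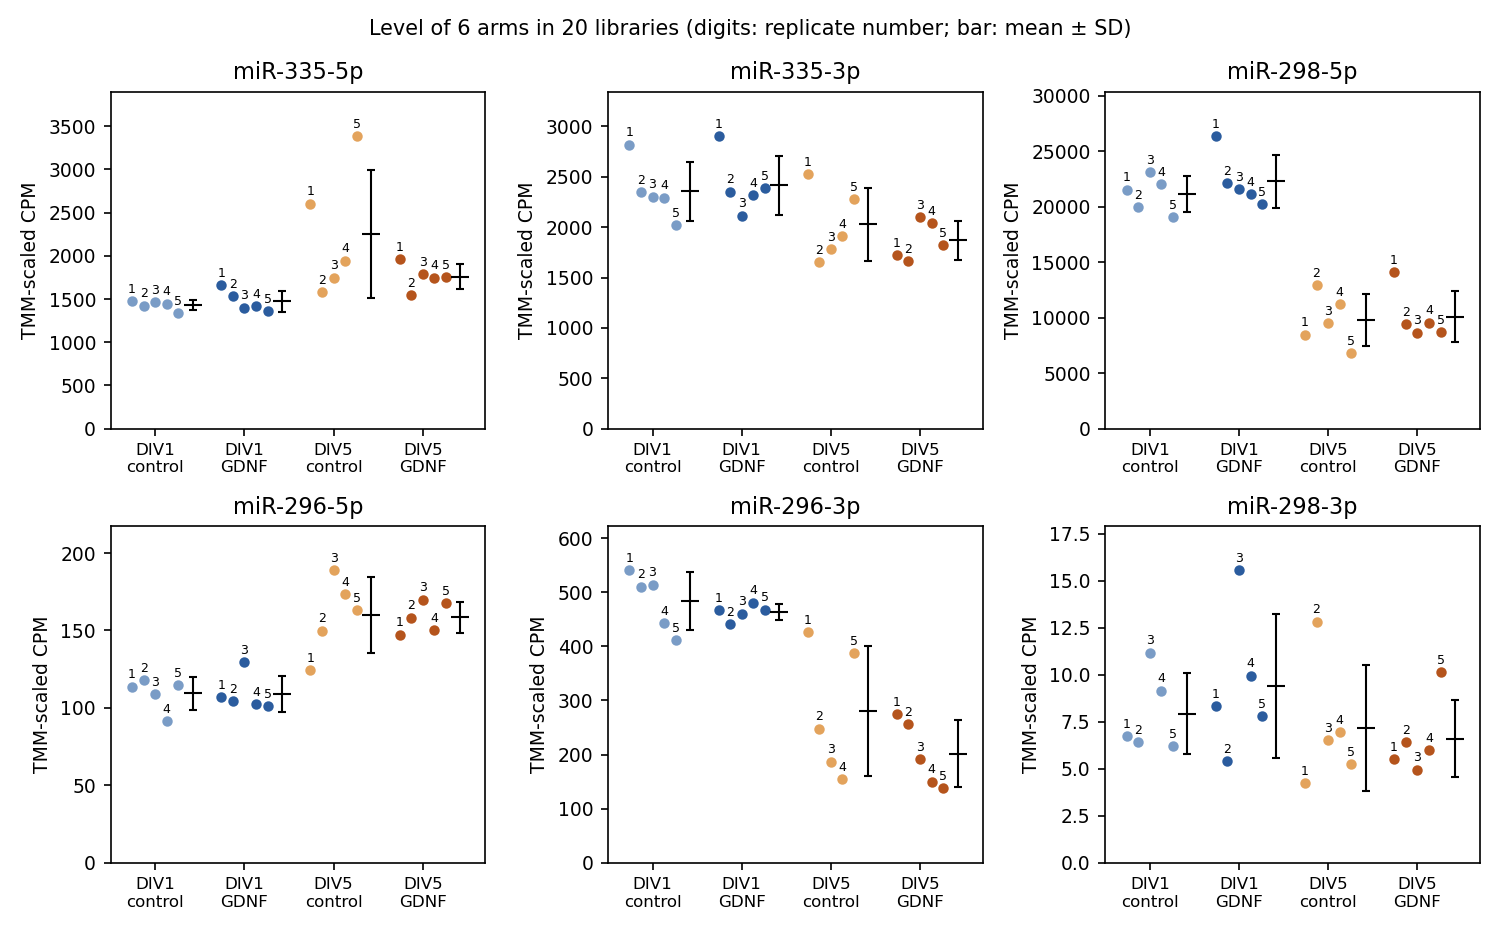
TMM-scaled CPM (vertical axes, each starting at 0) of the 6 arms that passed the count filter, in the 4 groups. Points are libraries marked by replicate number, and bars give the mean ± SD of 5 libraries. The DIV5 points of miR-298-5p all lie below the DIV1 points, those of miR-296-5p lie above in controls and with GDNF, and DIV5 control replicates 1 and 5 are the highest of their group for miR-335-5p and miR-296-3p.

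The first comparison asked how the loci differed between DIV1 and DIV5. Of the 10 members, 6 passed the count filter and were tested with edgeR among 542 miRNAs. Without GDNF, 4 of these 6 were called at an adjusted p below 0.05, 2 higher and 2 lower at DIV5. Over all tested miRNAs 60.7% were called (31.4% higher, 29.3% lower), so the members' share is near the background. With GDNF, 1 member was higher and 3 were lower, against 52.4% of all miRNAs called (25.1% higher, 27.3% lower). The median log2 difference of the 6 members was -0.21 without GDNF and -0.47 with GDNF, beside 0.10 and 0.0017 over all tested miRNAs.

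At the Gnas region miR-298-5p, the most abundant member, fell in both conditions. Control libraries at DIV1 had 21548, 19981, 23145, 22030 and 19038 CPM (replicates 1 to 5), and those at DIV5 had 8456, 12918, 9518, 11239 and 6792 CPM. With GDNF the DIV1 libraries had 26399, 22109, 21577, 21134 and 20229 CPM, and the DIV5 libraries 14116, 9427, 8645, 9540 and 8678 CPM. Every DIV5 library lay below every DIV1 library. The mean at DIV5 was 0.463 of that at DIV1 in controls (log2 difference -1.11 ± 0.15 SE, edgeR adjusted p = 4.0e-06) and 0.452 with GDNF (-1.14 ± 0.15, adjusted p = 3.37e-06). Groups without overlap were found for 39.3% of all tested miRNAs in controls and for 36.9% with GDNF. Without DIV5 control replicates 1 and 5 the difference in controls was -0.90 (adjusted p = 2.88e-05).

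The other arm of that hairpin, miR-298-3p, stayed near the limit of the count filter, with 3 to 39 reads per library. Its group means were 7.93 ± 2.17 and 7.16 ± 3.35 CPM in DIV1 and DIV5 controls and 9.40 ± 3.81 and 6.60 ± 2.05 CPM with GDNF (SD, n = 5), and all groups overlapped. The log2 difference between days was -0.22 (edgeR adjusted p = 0.595) in controls and -0.56 (adjusted p = 0.1503) with GDNF. In controls its sign turned to 0.03 with scaling by library totals alone.

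The arms of miR-296, the near neighbour of miR-298, went in opposite directions. The 3p arm, the larger at DIV1, had 541, 510.0, 514, 443 and 412 CPM in DIV1 controls and 426, 248, 187, 155 and 387 CPM in DIV5 controls. With GDNF it had 441 to 480 CPM at DIV1 (median 466) and 275, 256, 191, 150.1 and 137 CPM at DIV5. DIV5 control replicate 1 thus overlapped the DIV1 controls, whereas the GDNF groups did not overlap. The 3p arm fell by 0.79 ± 0.23 (SE, log2) in controls (edgeR adjusted p = 0.00664) and by 1.20 ± 0.24 with GDNF (adjusted p = 0.000277). The call in controls was lost with scaling by library totals alone (-0.53, adjusted p = 0.0567) and with DIV5 replicates 1 and 2 only (-0.44, adjusted p = 0.0807). Without DIV5 control replicates 1 and 5, the highest of their group, the difference was -1.30 (adjusted p = 1.74e-05), and leaving them out favours a fall.

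Meanwhile miR-296-5p rose in both conditions. Its DIV1 controls had 114, 118, 109, 91.5 and 115 CPM and its DIV5 controls 124, 149.97, 189, 173 and 163 CPM. With GDNF the values were 107, 104, 129, 102 and 101 CPM at DIV1 and 147, 158, 170, 150.4 and 167 CPM at DIV5. Neither pair of groups overlapped. The log2 difference was 0.55 ± 0.13 (SE) in controls (edgeR adjusted p = 0.000824) and 0.54 ± 0.13 with GDNF (adjusted p = 0.00124), and in controls the call was lost with DIV5 replicates 1 and 2 only (0.37, adjusted p = 0.0533).

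In miR-335, made from Mest introns, the 5p arm rose in control cultures. Its DIV1 controls had 1479, 1422, 1463, 1447 and 1337 CPM. Its DIV5 controls had 2604, 1577, 1747, 1945 and 3389 CPM, all above the DIV1 controls, with replicates 1 and 5 far above the rest. With GDNF it had 1361 to 1663 CPM at DIV1 (median 1419) and 1960, 1546, 1789, 1749 and 1751 CPM at DIV5, and these groups overlapped through replicate 2. The difference between days was 0.66 ± 0.15 (SE, log2) in controls (edgeR adjusted p = 0.00101) and 0.25 ± 0.15 with GDNF (adjusted p = 0.173). Without DIV5 control replicates 1 and 5 these values were 0.32 (adjusted p = 0.0143) and 0.29 (adjusted p = 0.0101). The value with GDNF was also called with every miRNA with a read kept (0.52, adjusted p = 0.0120) and with only its 2 groups fitted (0.30, adjusted p = 0.0220). The difference between the day effects of the 2 conditions was not called when tested itself (-0.40 ± 0.22, edgeR adjusted p = 0.634), and it was -0.03 without DIV5 control replicates 1 and 5.

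The 3p arm of miR-335 was not called different between days in controls and was called lower at DIV5 with GDNF. Its DIV1 controls had 2017 to 2819 CPM (median 2303) and its DIV5 controls 2523, 1652, 1783, 1913 and 2281 CPM, which overlapped. With GDNF the range was 2114 to 2907 CPM at DIV1 (median 2352) and 1662 to 2100.1 CPM at DIV5 (median 1820), without overlap. The edgeR log2 difference was -0.21 ± 0.13 in controls (adjusted p = 0.147) and the arm fell by 0.37 ± 0.13 with GDNF (adjusted p = 0.0180). Without DIV5 control replicates 1 and 5 it was called in controls as well (-0.38, adjusted p = 0.0162). These were the highest of their group in this arm too, so leaving them out favours a fall. With scaling by library totals alone the values were 0.04 in controls and -0.23 with GDNF, neither called. The GDNF call was also lost without DIV1 GDNF replicate 1 (-0.25, adjusted p = 0.116), without DIV1 GDNF replicate 5 (-0.33, adjusted p = 0.0540) and without DIV5 GDNF replicate 2 (-0.30, adjusted p = 0.0640), with DIV5 replicates 3 to 5 only (-0.25, adjusted p = 0.102) and with every miRNA with a read kept (-0.10, adjusted p = 0.698).

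**Figure D2:**
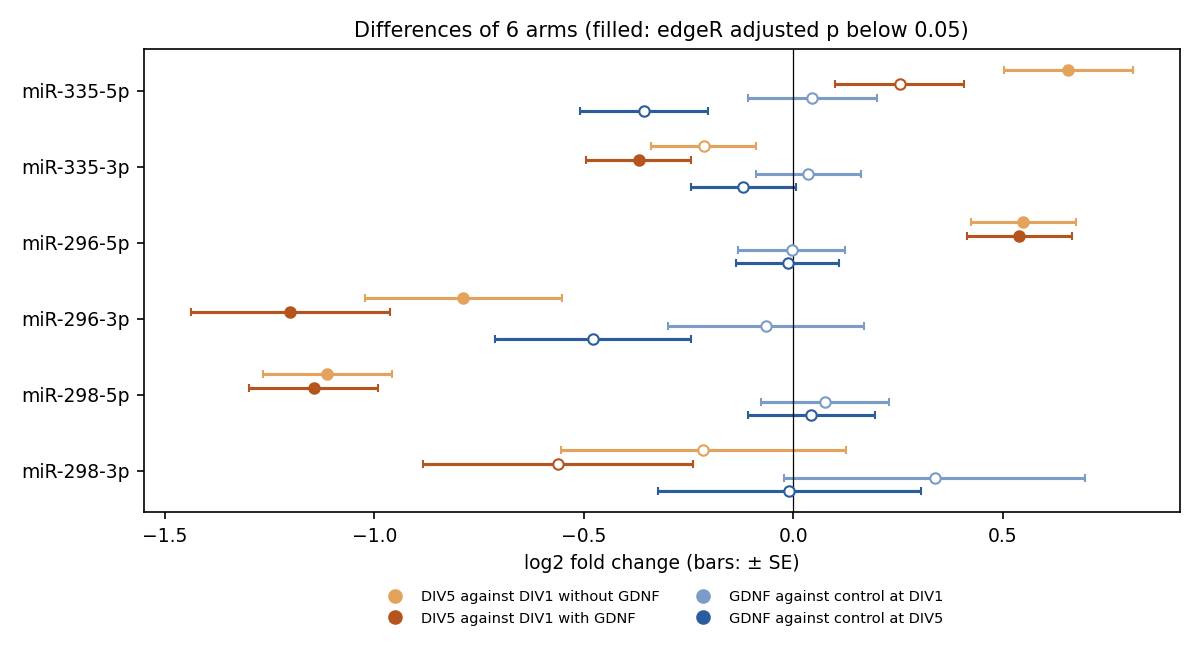
Log2 differences (horizontal axis) of the 6 tested arms with bars of ± SE from edgeR, for DIV5 against DIV1 without and with GDNF and for GDNF against control at each day. Filled points had an adjusted p below 0.05; they are 8 of the 12 day differences and none of the GDNF differences.

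Because the arms of a hairpin are cut from the same transcript and counted in the same library, their balance does not depend on library scaling. The share of the 5p arm in the reads of both arms differed between days in miR-296 and miR-335. In miR-296 it was 17.4%, 18.8%, 17.5%, 17.1% and 21.8% in the DIV1 controls and 22.6%, 37.7%, 50.3%, 52.8% and 29.6% in the DIV5 controls. With GDNF it was 18.6%, 19.1%, 22.0%, 17.6% and 17.8% at DIV1 and 34.9%, 38.2%, 47.1%, 50.04% and 54.9% at DIV5. At DIV1 the 3p arm prevailed in each of the 10 libraries, and at DIV5 the 5p arm reached or passed the 3p arm in 2 control libraries and 2 libraries with GDNF. The mean share went from 18.5% ± 1.93 to 38.6% ± 13.0 (SD, n = 5) in controls and from 19.02% ± 1.76 to 45.0% ± 8.32 with GDNF.

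These differences of 20.1 and 26.0 percentage points were the largest in size of 194 and 176 hairpins. Each of those had at least 20 reads, both arms summed, in every library compared. The median size over those hairpins was 0.944 and 0.521 points. That median and the ranks include hairpins read almost only from a single arm, such as miR-298 with changes of -0.034 and -0.026 points. The miR-296 groups did not overlap in either condition, as was the case for 11.3% and 12.5% of hairpins. The exact two-sided permutation p was 0.00794, the smallest that 5 libraries against 5 allow. Adjusted over all hairpins it was 0.0700 in controls and 0.0635 with GDNF, above the threshold of 0.05, which no hairpin reached in either comparison (58 of 194 and 40 of 176 had an unadjusted p below 0.05).

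In miR-335 the 5p share was 34.4%, 37.7%, 38.8%, 38.7% and 39.9% in the DIV1 controls and 50.8%, 48.8%, 49.5%, 50.4% and 59.8% in the DIV5 controls. With GDNF it was 36.4%, 39.5%, 39.8%, 38.0% and 36.3% at DIV1 and 53.2%, 48.2%, 46.0%, 46.1% and 49.0% at DIV5. No DIV5 library overlapped the DIV1 libraries. The difference of the means was 13.9 points in controls and 10.5 points with GDNF, at ranks 8 and 7 by size among the same hairpins, with the same exact p of 0.00794 and adjusted p of 0.0700 and 0.0635. In miR-298 the 5p arm gave 99.93% to 99.96% of reads in every group mean, and the control groups of the 2 days, 0.034 points apart, did not overlap.

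**Figure D3:**
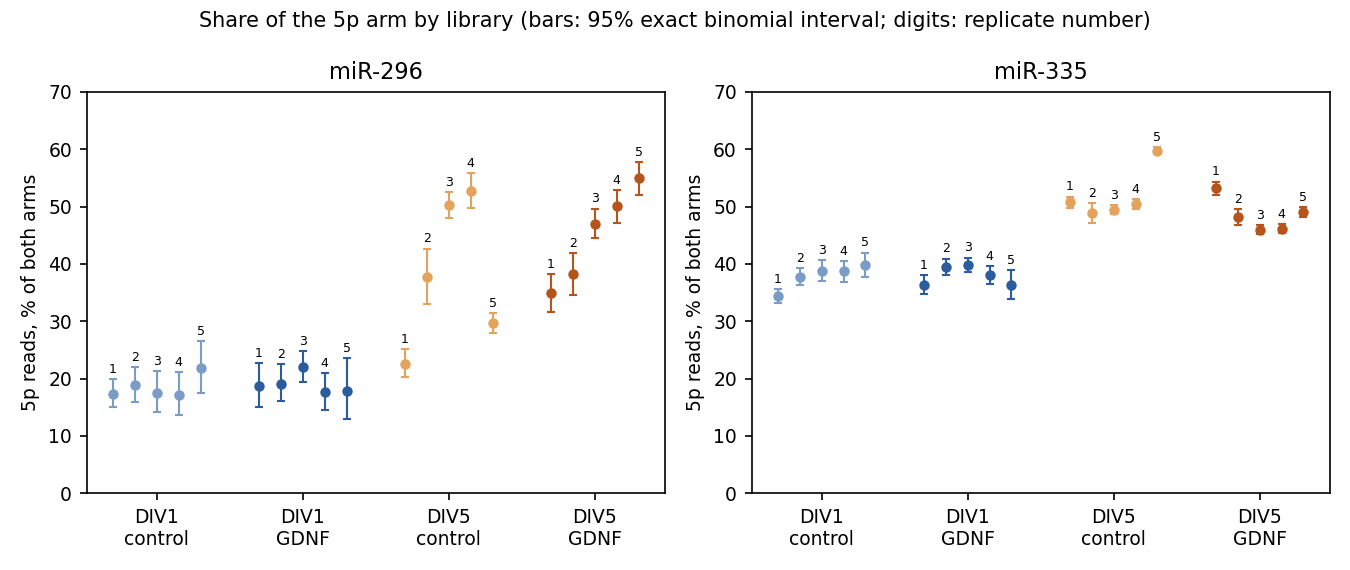
Share of the 5p arm in the reads of both arms (vertical axis, percent) of miR-296 and miR-335 in the 4 groups. Points are libraries marked by replicate number, and bars are 95% exact binomial intervals, which cover counting error only. At DIV1 the miR-296 share lies between 17.1% and 22.0%; at DIV5 it lies between 22.6% and 54.9%, lowest in control replicate 1.

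A limma fit of the log2 ratio of 5p to 3p reads over 82 hairpins with at least 5 reads of each arm in every library was added after the shares were seen. In it the ratio of miR-296 rose by 1.43 ± 0.30 (SE) in controls (adjusted p = 0.00119) and by 1.79 ± 0.30 with GDNF (adjusted p = 0.000101). The ratio of miR-335 rose by 0.82 ± 0.14 (adjusted p = 0.000135) and by 0.62 ± 0.14 (adjusted p = 0.00215). In this fit 37.8% of hairpins were called in controls and 29.3% with GDNF. On this scale miR-296 ranked 5 and 2 by size of 82, and miR-335 ranked 22 and 24. The miR-296 ratio was 0.89 higher at DIV5 in controls with DIV5 replicates 1 and 2 only (adjusted p = 0.0234) and 1.78 higher with replicates 3 to 5 only (adjusted p = 5.38e-05). Those replicate sets differ in the share of reads without a feature, given above, and the part of that share in the result was not tested.

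**Figure D4:**
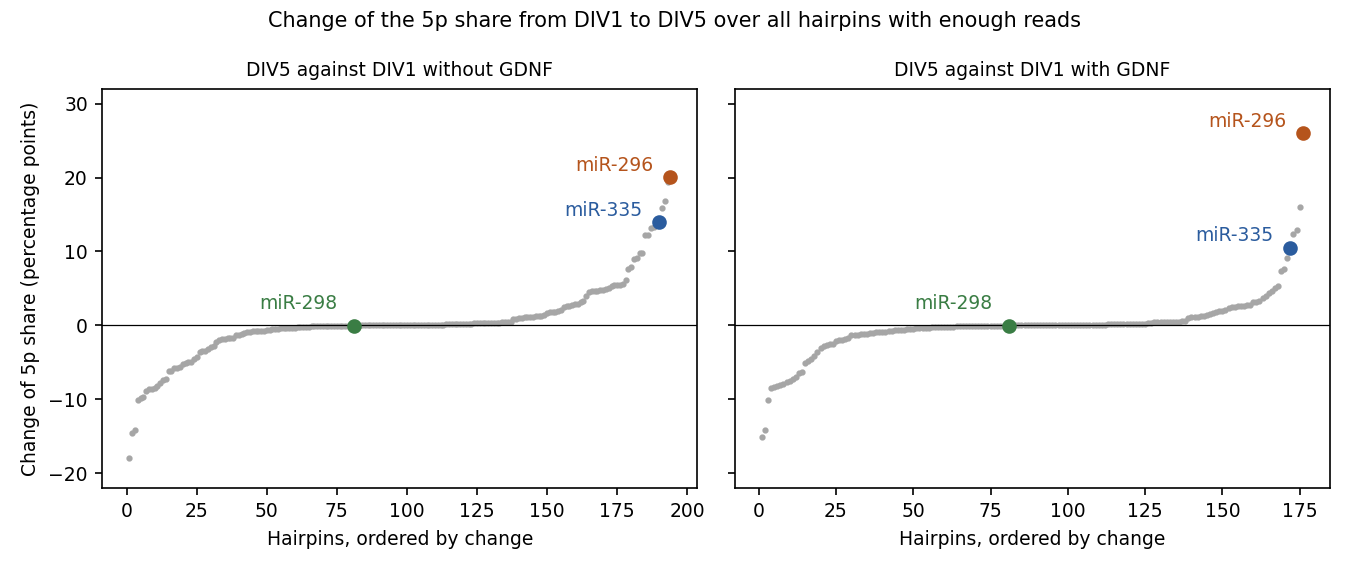
Change of the mean 5p share from DIV1 to DIV5 in percentage points (vertical axis), in controls (194 hairpins) and with GDNF (176). All hairpins with at least 20 reads, both arms summed, in every library compared are shown. They are ordered from the most negative to the most positive along the horizontal axis. miR-296 is at the upper end of both panels, miR-335 is near it, and miR-298 is close to 0.

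The loci were next compared with each other, using log2 of the ratio of summed arms in each library, in a family of 12 exact two-sided permutation tests. Summed arms of miR-335 averaged 3785 CPM at DIV1 and 4283 CPM at DIV5 in controls, and 3891 and then 3628 CPM with GDNF. Those of miR-298 averaged 21156 and then 9792 CPM in controls, and 22299 and then 10088 CPM with GDNF. Relative to miR-298, miR-335 was higher at DIV5 by 1.29 in controls and by 1.07 with GDNF (exact p = 0.00794, adjusted p = 0.0238 for both). Without DIV5 control replicates 1 and 5 the value in controls was 0.82 (exact permutation adjusted p = 0.0429). Relative to miR-296, it was higher by 0.60 (exact p = 0.00794, adjusted p = 0.0238) and by 0.58 (exact p = 0.0159, adjusted p = 0.0381). The reads of miR-335 outnumbered those of miR-296 by 5.998 to 6.985 times in DIV1 controls, 8.11 to 11.7 times in DIV5 controls, 5.96 to 7.96 times at DIV1 with GDNF and 7.75 to 12.6 times at DIV5 with GDNF. The last 2 ranges overlap slightly. The call with GDNF was lost without DIV1 GDNF replicate 2, 3, 4 or 5 or DIV5 GDNF replicate 4 (exact permutation adjusted p of 0.0571 to 0.0762).

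Summed arms of miR-296 averaged 593 and then 440 CPM in controls and 572 and then 361 CPM with GDNF, so its sum was lower at DIV5, as was that of miR-298. Between these neighbours of the Gnas region, the ratio of miR-296 to miR-298 was higher at DIV5 than at DIV1 with GDNF, by 0.48 (exact permutation p = 0.00794, adjusted p = 0.0238). The difference in controls was 0.69 (exact p = 0.0397, adjusted p = 0.0794), and 0.23 without DIV5 control replicates 1 and 5 (adjusted p = 0.250). Without DIV1 GDNF replicate 1 the GDNF value was 0.42 (adjusted p = 0.0571), and without DIV5 control replicate 2 or 4 the control value was 0.82 or 0.84 (adjusted p = 0.0476 and 0.0317).

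The second question was whether GDNF, the treatment of the series, changed any of these miRNAs. No member was called at either day. At DIV1 the log2 differences of the 6 tested arms lay between -0.06 (miR-296-3p) and 0.34 ± 0.36 SE (miR-298-3p). Among 542 miRNAs edgeR called 0.0% at DIV1 (7 had an unadjusted p below 0.05) and DESeq2 called 0.

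At DIV5 edgeR called 1 miRNA of 542, or 0.185% (3 with the replicate number as a block within each day), and DESeq2 called 26, no member among them. That count rested on single libraries: edgeR called 43 miRNAs without DIV5 control replicate 2, 32 without replicate 3 and 37 without replicate 4, most of them lower with GDNF and none a member. It called 0 without DIV5 GDNF replicate 1 or 2, and 2 without DIV5 control replicate 1 or 5 or DIV5 GDNF replicate 5. The largest edgeR differences among members were -0.48 ± 0.23 for miR-296-3p (edgeR unadjusted p = 0.0540, adjusted p = 0.329) and -0.36 ± 0.15 for miR-335-5p (unadjusted p = 0.0294, adjusted p = 0.239). DIV5 control replicates 1 and 5 were the highest of their group in both arms. Without them the values were 0.03 and -0.01. Leaving out the highest controls moves such a difference upward in any case, so these values are a description. The other 4 arms lay between -0.12 and 0.04. No difference between the GDNF effects of the 2 days was called for a member (-0.41 to -0.01, adjusted p of 0.634 or more) or for any of the 542 miRNAs by edgeR or DESeq2, with 50 miRNAs at an unadjusted p below 0.05 in edgeR.

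Arm balance was not called different between GDNF groups and controls for any hairpin, with 0 of 175 at DIV1 and 0 of 222 at DIV5 (exact permutation tests with adjustment, 3 and 11 at an unadjusted p below 0.05). Because the smallest exact p is 0.00794, a call after this adjustment was hardly possible, so these counts of 0 say little. Groups without overlap were found for 1.14% and 0.45% of those hairpins, no member among them. The limma fit of log2 arm ratios, which is free of that limit, called 0 of 82 hairpins at each day. For miR-296 the 5p share differed by 0.51 points at DIV1 (exact permutation p = 0.548) and by 6.41 points at DIV5 (exact p = 0.389), and by -1.92 points at DIV5 without control replicates 1 and 5. The miR-335 share differed by 0.087 points at DIV1 (exact p = 0.960) and by -3.34 points at DIV5 (exact p = 0.190). This last value was -1.37 points without DIV5 control replicate 5 and -1.06 points without DIV5 control replicates 1 and 5. None of the 6 tests of locus ratios for GDNF passed, with exact permutation adjusted p between 0.487 and 0.690.

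The miRNAs of the Igf2 and H19 genes, which neighbour each other, were too rare for the count filter. miR-483-3p had 155 reads over 20 libraries, with 0 to 21 per library, and miR-483-5p had 61. DIV1 controls of miR-483-3p had 11.4, 1.83, 0, 3.92 and 0 CPM, and DIV5 controls 4.24, 4.93, 4.15, 3.03 and 3.05 CPM. With GDNF there were 1.39, 6.29, 2.49, 0.994 and 5.20 CPM at DIV1 and 6.01, 4.09, 2.48, 2.99 and 4.68 CPM at DIV5. The groups overlapped, with the widest spread in DIV1 controls, where the limit that 3 reads set was 2.02 to 4.64 CPM per library.

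For miR-483-5p DIV1 controls had 4.04, 2.75, 0, 3.92 and 0 CPM and DIV5 controls 2.83, 0.987, 0.988, 0.605 and 1.74 CPM. With GDNF it had 2.78, 1.796, 1.24, 0 and 0 CPM at DIV1 and 4.51, 1.17, 1.98, 0.249 and 0.260 CPM at DIV5. These values overlap in every comparison. Pooled over all libraries the 3p arm gave 71.8% of the 216 reads of miR-483 (95% exact binomial interval 65.3% to 77.7%). That interval covers counting error and not the variation among libraries.

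miR-675 had 35 reads in all, 31 of them from the 3p arm (88.6%, 95% exact binomial interval of the pooled reads 73.3% to 96.8%, counting error only). The 3p arm was read in 9 libraries, namely 2 DIV1 controls (0.673 and 3.10 CPM), 1 DIV1 library with GDNF (4.16 CPM), 2 DIV5 controls (1.19 and 1.31 CPM) and 4 DIV5 libraries with GDNF (0.249 to 2.00 CPM). The 5p arm had 4 reads in 3 libraries and none in the 5 DIV5 libraries with GDNF, where 3 reads would be 0.743 to 1.75 CPM. Exact two-sided permutation tests of log2(CPM + 0.5) were possible for 10 comparisons of these arms, and their p lay between 0.302 and 0.976 (adjusted p of 0.884 or more). At this depth no difference was detectable for either locus.

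**Figure D5:**
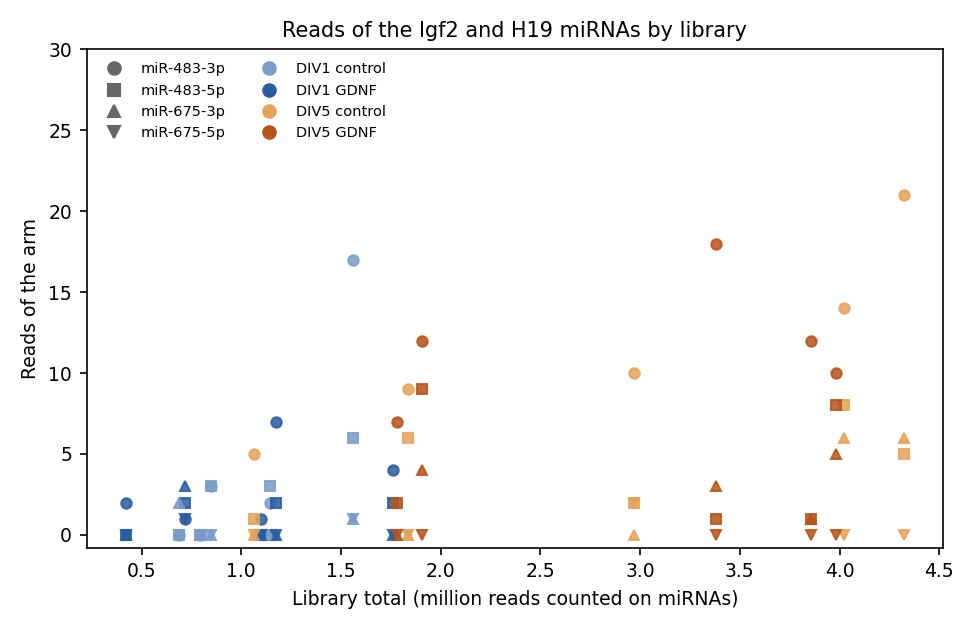
Reads of the 4 Igf2 and H19 arms (vertical axis) against the total of counted reads in the library (horizontal axis), 1 point per arm and library, with shape for the arm and colour for the group. Most libraries hold fewer than 10 reads of any of these arms, and the highest count, 21 of miR-483-3p, is in the deepest library.

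Each abundant arm was set beside the tested miRNAs whose log2 CPM followed it most closely over the 20 libraries. These Pearson r are a description, since all values share libraries, depth and the division into days. Closest to miR-298-5p were miR-421-3p (r = 0.972), miR-130b-5p (0.965) and miR-130b-3p (0.957). Closest to miR-335-5p were miR-7a-5p (0.957), miR-411-3p (0.954) and miR-377-3p (0.953), of which miR-411 and miR-377 belong to the Dlk1-Dio3 domain. The nearest to miR-335-3p had lower values, with miR-106a-5p at 0.794, miR-20a-5p at 0.730 and miR-877-5p at 0.726.

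The arms of miR-296 had no nearest miRNA in common. For the 3p arm these were miR-219a-2-3p (r = 0.944), miR-877-5p (0.943) and miR-130a-3p (0.914). For the 5p arm they were miR-434-5p of the Dlk1-Dio3 domain (0.957), miR-125b-2-3p (0.942) and miR-448-3p (0.926).

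The Dlk1-Dio3 domain, the large imprinted miRNA cluster, is given for scale. Of its 86 tested arms 53 rose and 5 fell from DIV1 to DIV5 in controls (edgeR, median log2 difference 0.85), and 46 rose and 4 fell with GDNF (median 0.65). The members gave 2 higher and 2 lower of 6 in controls and 1 higher and 3 lower with GDNF. Whether the members differ from that domain as a set was not tested.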

How the data were processed

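Each library has a table of raw counts of reads on mature miRNAs, deposited by the authors and made with cutadapt 1.8.1, STAR 2.4.1d and HTSeq on mm10, per the submitters' processing notes. The miRNA annotation and the strand setting are not given in the sources used here. Tally lines stayed out of the totals; reads without a feature were 9.51% to 22.6% of each library. Counts were fitted with edgeR 4.0.16 (R 4.3.3): filterByExpr kept 542 of 1581 miRNAs with a read, TMM scaling, 1 robust quasi-likelihood fit of the 4 groups, Benjamini-Hochberg adjustment over all tested miRNAs, calls at adjusted p below 0.05. The SE is the log2 difference divided by the square root of F. A single read was worth 0.198 to 2.60 CPM.

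Arm shares (at least 20 reads, both arms summed, in every library compared), ratios of loci (pseudocount 0.5 reads per locus) and arms below the filter (pseudocount 0.5 CPM) were tested with exact two-sided permutation tests (SciPy 1.17.1). Share tests were adjusted over all hairpins of a comparison rather than over the members' tests as first planned. Intervals of single libraries and of reads pooled over libraries are 95% exact Clopper-Pearson intervals. These and the 3-read limits cover counting error only. Log2 arm ratios were fitted with limma 3.58.1. The tests were checked on simulated data. For the share test most simulated hairpins were given a change, so that check does not cover the limit that its smallest p sets here. Alternatives were DESeq2 1.42.0, limma voom, other scalings and filters, subsets of libraries and a replicate block.

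Members, lists and tests were chosen with earlier results of these data known. All arms of the 5 hairpins are named, plus the 3 miRNAs most alike each member above 10 CPM and the leading arms of lists. Same-numbered control and GDNF libraries at DIV5 had deviations with r of 0.208 to 0.514 in all 5 pairs. Only control replicates 2 and 4 were closest to the GDNF library of their own number, so pairing by number is not established. DIV1 pairs gave 0.0063 to 0.474, with control replicates 1, 3 and 5 closest to their own number. Numbers did not pair libraries across days. No 2 libraries of the same group agreed within sampling noise (smallest chi-square per degree of freedom 10.3). Gene positions are from GENCODE vM21 and sequences from RefSeq GRCm38.p6.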

Additional observations from a re-analysis of the deposited data

Results flagged for a closer look

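In each group of 5 libraries the highest and lowest values of the members with a mean of at least 1 CPM, and of the arm shares, were checked for a gap to the others above Dixon's 95% critical value of 0.71. Of 44 groups checked, 4 held such a library, where chance gives about 1 in 20, or 2.2. miR-296-5p was 129 CPM in DIV1 GDNF replicate 3, against 101 to 107 CPM in the others. The 5p share of miR-335 was 59.8% in DIV5 control replicate 5, against 48.8% to 50.8%. miR-298-3p was 10.1 CPM in DIV5 GDNF replicate 5, against 4.95 to 6.42 CPM. miR-298-5p was 14116 CPM in DIV5 GDNF replicate 1, against 8645 to 9540 CPM.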

How the results depend on the processing

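The counts of members called were 3 to 5 for both day comparisons under the alternatives run, except 2 without GDNF with DIV5 replicates 1 and 2 only, and 0 for both GDNF comparisons and their difference under every alternative. Scaling by library totals alone moved the median of all miRNAs between days from 0.10 to 0.36 without GDNF and from 0.0017 to 0.15 with GDNF, and of the calls in controls 228 were higher and 111 lower, beside 170 and 159. DESeq2 called 26 miRNAs for GDNF at DIV5 and a filter at a mean of 10 CPM called 13, beside 1, and leaving out 1 library gave 0 to 43. The replicate block, a paired analysis, changed no member's call: miR-335-5p differed by -0.30 (adjusted p = 0.264) for GDNF at DIV5 with the block within each day; over all miRNAs that fit called 3.

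Without GDNF the small day difference of miR-298-3p turned to 0.033 with library totals, 0.0013 with every miRNA with a read, 0.040 with DIV5 replicates 1 and 2 and 0.060 without DIV5 control replicates 1 and 5, and that of miR-335-3p to 0.044 with library totals. The arm changes between days passed in limma on log2 5p over 3p, and not in the exact test of shares, whose smallest p limits it. Without GDNF miR-296 gave 1.43, also with the replicate block, 1.96 without DIV5 control replicates 1 and 5, and 0.89 and 1.78 with DIV5 replicates 1 and 2 and 3 to 5; miR-335 gave 0.82, with the block too, 0.69, 0.70 and 0.90. With GDNF miR-296 gave 1.79 in the first 3 fits, then 1.29 and 2.13, and miR-335 gave 0.62, then 0.75 and 0.54.

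For GDNF at DIV5, leaving out DIV5 control replicates 1 and 5 turned miR-296-3p to 0.030, the miR-296 share to -1.92 points (limma -0.11), miR-335 over miR-298 to 0.21 and miR-296 over miR-298 to 0.13. With DIV5 replicates 1 and 2 the limma value of miR-335 was 0.051. None was called, and the cause was not tested.

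Leaving out 1 library at a time gave 5p share differences for GDNF at DIV1 of -0.23 to 1.32 points (miR-296), -0.010 to 0.0018 (miR-298) and -0.79 to 0.58 (miR-335), and at DIV5 of -0.0048 to 0.015 (miR-298). The ratio of miR-335 to miR-296 was 0.50 to 0.68 between days with GDNF and -0.014 to 0.16 for GDNF at DIV5, and miR-335 over miR-298 was -0.069 to 0.0044 for GDNF at DIV1. The ratio of miR-296 to miR-298 was 0.48 to 0.84 between days without and 0.41 to 0.55 with GDNF. Below the filter, miR-483-3p was -0.12 to 0.16 for GDNF at DIV5. miR-483-5p was -0.42 to 0.38 between days without GDNF (-0.14 with a pseudocount of 2 CPM), -0.034 to 0.71 with GDNF and -0.53 to 0.16 for GDNF at DIV5. Depth limits these arms: 3 reads were 1.87 to 7.79 CPM at DIV1 and 0.593 to 2.96 CPM at DIV5.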
